A study of Sus scrofa with 13 samples.

Results

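The genes described here mark the endothelium of the liver sinusoid and its activation, and 10 were listed: PECAM1, STAB1, STAB2, LYVE1, KDR and TEK as identity genes, and SELE, SELP, VCAM1 and EDN1 as adhesion and activation genes. They were taken from the table of 35670 pig genes by symbol, and 8 of the 10 had a row. STAB2 and SELE had none under their symbol and were not analysed here. RNA was sequenced from liver biopsies of female Yorkshire pigs in 4 groups. Baseline livers (n = 2, libraries 1a and 2) were sampled without ischemia or reperfusion. Ischemic controls (n = 3) had all inflow and outflow of the liver clamped for 45 min, followed by 6 h of reperfusion without cells. Livers with arterial infusion (n = 4) and portal infusion (n = 4) underwent identical clamping and reperfusion times, with 3000000 human bone marrow mesenchymal stromal cells (BM-MSC) given per kg after the clamps were released, by the hepatic artery or the portal vein. The study asked what ischemia-reperfusion injury (IRI) does to the liver and whether the route of infusion matters. All groups underwent anesthesia and laparotomy, but baseline biopsies were taken before clamping and the others at 6 h of reperfusion. No group had the same hours of surgery without clamping. Against baseline, injury thus cannot be told apart from time under anesthesia and surgery. The stromal cells were human and not porcine, and the lobe sampled for each library is not given in the sources used here. The libraries of a group are described as separate samples, so the p-values below measure the spread between these samples. The paper lists no animals as a baseline group, and it took biopsies before clamping and at 6 h. Whether a baseline library shares its pig with a library at 6 h is not given. Comparisons with baseline therefore treat the libraries as unpaired.

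Sinusoidal endothelial cells line the capillaries of the liver. They are fenestrated, lack a full basement membrane, and clear waste molecules from blood through scavenger receptors such as the stabilins. Activated endothelium displays stored or newly made adhesion molecules that slow and hold leukocytes, P-selectin and E-selectin first and VCAM1 later. It also releases endothelin, a vasoconstrictor. The liver sinusoid is unusual among capillary beds because it carries LYVE1, which elsewhere marks lymphatic vessels.

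Among the identity genes, PECAM1 (ENSSSCG00000017277, chr12:14667643-14723296) encodes the junctional adhesion molecule CD31, found on endothelium in general and on platelets and some leukocytes. STAB1 (ENSSSCG00000011443, chr13:34630448-34659371) encodes the scavenger receptor stabilin-1, which macrophages also carry. LYVE1 (ENSSSCG00000029886, chr2:48937357-48954206) encodes a hyaluronan receptor. KDR (ENSSSCG00000008844, chr8:41809116-41856379) encodes VEGF receptor 2, and TEK (ENSSSCG00000005122, chr1:195938177-196052294) encodes the angiopoietin receptor TIE2. Among the activation genes, SELP (ENSSSCG00000006288, chr4:81376804-81401240) encodes P-selectin, which is also a platelet protein. VCAM1 (ENSSSCG00000006862, chr4:117496914-117511211) encodes the ligand of the leukocyte integrin with the ITGA4 chain, and EDN1 (ENSSSCG00000035598, chr7:8752018-8758354) encodes the precursor of endothelin-1. Positions are those of RefSeq on Sscrofa11.1, the assembly to which the reads had been mapped.

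Each library held 18975413 to 35949178 counts (median 30260803) and between 13581 and 20282 genes with at least 1 read. Ischemic control 2, arterial infusion 1 and portal infusions 1 and 4 stood apart from the other 9 on the first principal component, which held 64.0% of the variance of the 500 most variable genes. These libraries come from 3 of the 4 groups, and the values of the 8 genes are therefore given for every library. Across all 16481 genes that passed the filter on low counts, the quasi-likelihood test of edgeR, adjusted after Benjamini and Hochberg, called 0 genes (0.0%) in each of 6 comparisons at an adjusted p under 0.05. At an unadjusted p under 0.05 it gave 720 genes for ischemic controls and 778 for all livers at 6 h, each against baseline, 353 for infused livers, 258 for the arterial and 460 for the portal group, each against ischemic controls, and 396 for the arterial against the portal group. DESeq2 on all 13 libraries called 5, 14, 1, 0, 4 and 1 genes in that order.

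General endothelial markers were detected in every group, with an exception in the libraries that stood apart. CDH5, the endothelial cadherin, had 448 to 3253 normalized counts over the 13 libraries, and TIE1 had 212 to 662. A normalized count is the number of reads divided by the size factor of the library. ERG, an endothelial transcription factor, had 185 to 508 normalized counts in 9 libraries, but 35.0 in ischemic control 2, 28.6 in arterial infusion 1 and 0 in portal infusions 1 and 4. EGFL7, an endothelial secreted protein, went the other way, with 7367, 3159, 8853 and 5636 in those same libraries against 664 to 1567 in the rest. In whole-tissue RNA, fewer endothelial cells and less RNA per endothelial cell cannot be told apart.

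The growth factor receptors KDR and TEK had their highest group mean at baseline, as did STAB1, PECAM1 and SELP. KDR had 2373 and 2694 normalized counts at baseline, 912, 1119 and 1234 in ischemic controls, 1163, 2940, 1685 and 3748 after arterial infusion, and 646, 1204, 1716 and 1022 after portal infusion. Every control and portal library lay below both baseline libraries, while the arterial group spread from below the highest control to above both baseline libraries. Group means were 2534 ± 227 (SD, n = 2) at baseline, 1088 ± 163 (SD, n = 3) in controls, 2384 ± 1176 (SD, n = 4) after arterial infusion and 1147 ± 445 (SD, n = 4) after portal infusion. TEK had 403 and 710 normalized counts at baseline, 255, 87.6 and 305 in controls, 145, 409, 302 and 424 after arterial infusion, and 55.4, 142, 230 and 95.7 after portal infusion. Only arterial infusions 2 and 4, of the 11 livers at 6 h, reached the lower baseline value. The mean of TEK in controls was 38.8% of that at baseline, with 57.5% after arterial and 23.5% after portal infusion. The libraries of ischemic control 2 and portal infusions 1 and 4 held the lowest TEK values, from 44 to 78 reads.

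STAB1, the scavenger receptor, fell into 2 levels that did not follow the groups. It had 3332 and 3773 normalized counts at baseline, 1333, 3954 and 1455 in controls, 1457, 1718, 1649 and 1723 after arterial infusion, and 3073, 774, 884 and 3467 after portal infusion. Ischemic control 2 and portal infusions 1 and 4 were thus at or near the baseline level, and the other 8 livers at 6 h had 774 to 1723. Arterial infusion 1, the remaining library that stood apart, had 1457 and stayed with the lower level.

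LYVE1 and PECAM1 showed less separation between groups. LYVE1 had 1536 and 2192 normalized counts at baseline, 1475, 2171 and 2618 in controls, 1450, 2103, 936 and 3475 after arterial infusion, and 1718, 805, 1207 and 1102 after portal infusion. The control values bracketed those at baseline. PECAM1 had 1481 and 2732 at baseline, 1147, 1108 and 2342 in controls, 658, 1402, 1053 and 3420 after arterial infusion, and 797, 898, 1040 and 851 after portal infusion. The portal group was narrow, with a mean of 897 ± 104 (SD, n = 4), and lay below every other library except arterial infusion 1.

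The activation genes SELP and EDN1 were measured at few reads. SELP had 15.4 and 126 normalized counts at baseline, 41.9, 0 and 18.8 in controls, 0, 29.7, 55.2 and 61.8 after arterial infusion, and 0, 24.3, 15.0 and 0 after portal infusion. Its 4 zeros were the 4 libraries that stood apart, and baseline 2 was the highest library with 119 reads. EDN1 had 64.0 and 149 at baseline, 75.2, 103 and 59.3 in controls, 21.4, 100.3, 112 and 199 after arterial infusion, and 0, 48.6, 20.1 and 0 after portal infusion. All 4 portal libraries were below all controls, and the 2 zeros were again portal infusions 1 and 4. A count of 0 reads allows up to 3 reads, which is 3.78 normalized counts in portal infusion 1 and 3.68 in portal infusion 4, so EDN1 there was below the lowest control by more than counting error; counting error is the only error this limit covers. In portal infusions 1 and 4, 20.8% and 16.2% of all genes tested were at 0 reads, against 1.78% to 11.7% in the other libraries, and the part of this in the low SELP and EDN1 values was not tested.

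VCAM1 had no order by group. It had 720 and 1466 normalized counts at baseline, 561, 1236 and 543 in controls, 1042, 914, 599 and 1911 after arterial infusion, and 690, 2449, 971 and 896 after portal infusion. Portal infusion 2 was the highest of the 13 libraries and arterial infusion 4 the next, while 2 controls were the lowest. The means were 1093 ± 527 (SD, n = 2), 780 ± 395 (SD, n = 3), 1117 ± 561 (SD, n = 4) and 1251 ± 807 (SD, n = 4) in the order above.

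**Figure D1:**
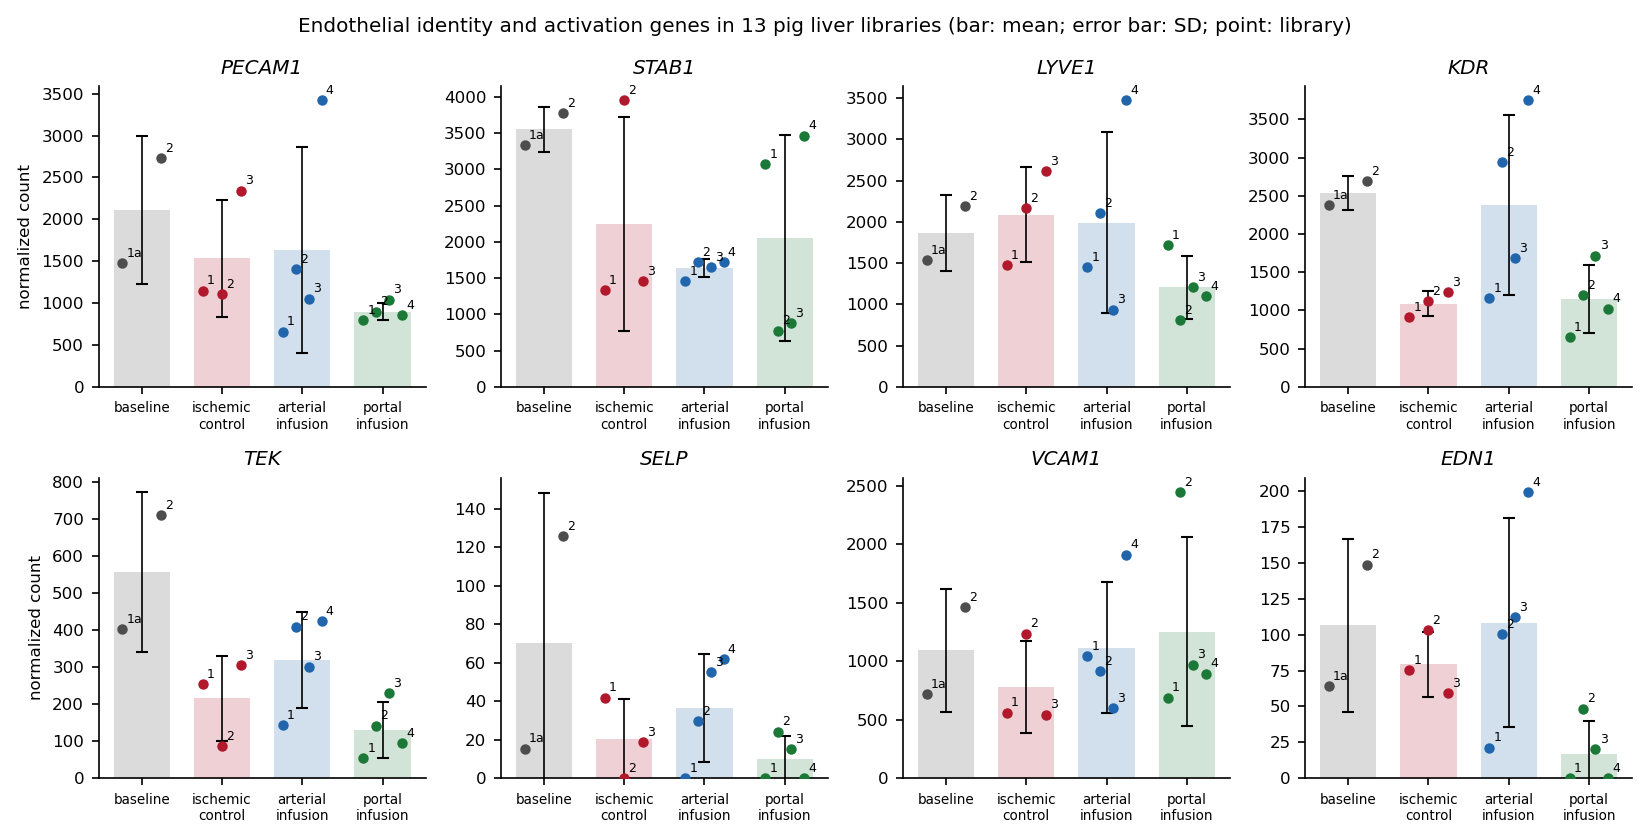
Normalized counts of the 8 genes in 4 groups of pig liver libraries; bars are group means, error bars SD (cut at 0), and points single libraries with their numbers. KDR in the 3 ischemic controls sits between 912 and 1234, below both baseline libraries, and EDN1 after portal infusion sits between 0 and 48.6, below all 3 controls.

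The plot of values by group shows the order of the means and how far neighbouring groups ran into each other. With the groups ordered by mean, the ranges of neighbours overlapped for STAB1, LYVE1, KDR, TEK, SELP and VCAM1 at each step. The exceptions were controls and portal infusion for PECAM1 (1108 to 2342 against 797 to 1040) and for EDN1 (59.3 to 103 against 0 to 48.6). A test of any difference among the 4 groups gave unadjusted p = 0.0263 for KDR and 0.0320 for TEK, and an adjusted p of 1.00 for all 8 genes (edgeR quasi-likelihood test, Benjamini-Hochberg). At an unadjusted p under 0.05, 2.39% of all genes tested passed.

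The first comparison, ischemic controls against baseline, addresses IRI without cells, together with the hours of anesthesia and surgery that came with it. Of the 8 genes, 7 had a lower fitted mean in controls and 1, LYVE1, a higher mean, and 0 passed the adjusted threshold (adjusted p 0.978 to 0.989, edgeR quasi-likelihood test, Benjamini-Hochberg). At an unadjusted p under 0.05 there was 1 gene, KDR, against 4.37% of all genes tested. KDR and TEK were also the 2 genes whose controls lay wholly below baseline, an arrangement found in 16.3% of all genes tested. KDR had a log2 fold change of -1.22 ± 0.51 (SE), unadjusted p = 0.0314, and an exact two-sided permutation p of 0.1, the smallest that 3 livers against 2 allow. When any 1 of these 5 libraries was left out, the log2 fold change of KDR stayed between -1.30 and -1.14 but its unadjusted p was above 0.05. TEK had a log2 fold change of -1.34 ± 0.69 (SE) with an exact permutation p of 0.2.

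The remaining genes of this comparison had differences of the size of their errors. The log2 fold changes were -0.69 ± 0.60 (SE) for STAB1, -0.45 ± 0.59 for PECAM1, 0.16 ± 0.51 for LYVE1, -0.50 ± 0.62 for VCAM1, -0.43 ± 1.40 for EDN1 and -1.72 ± 1.94 for SELP. The median over the 8 genes was -0.60 beside 0.00 over all genes tested, and 49.6% of all genes tested had a lower mean in controls. STAB1 depended on the libraries that stood apart: without ischemic control 2, arterial infusion 1 and portal infusions 1 and 4, an alternative chosen after seeing the data, its log2 fold change was -1.33 ± 0.27 (SE) and its adjusted p 0.202 (edgeR quasi-likelihood test, Benjamini-Hochberg). That exclusion drops ischemic control 2, the control with STAB1 at or near the baseline level (3954 normalized counts). It therefore cannot decide whether STAB1 was lower in controls. Leaving out baseline 2 turned the sign of PECAM1 (0.010), VCAM1 (0.045), EDN1 (0.25) and SELP (0.41), and LYVE1 turned to -0.068 without baseline 1a and to -0.012 without ischemic control 3.

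Taking all 11 livers at 6 h against baseline uses every library and shares its baseline with the comparison above. All 8 genes had a lower fitted mean at 6 h, where 50.6% of all genes tested did, and none passed the adjusted threshold (adjusted p 0.855 to 0.987, edgeR quasi-likelihood test, Benjamini-Hochberg). TEK was the 1 gene with an unadjusted p under 0.05, against 4.72% of all genes tested, with a log2 fold change of -1.42 ± 0.53 (SE), unadjusted p = 0.0171 and an exact two-sided permutation p of 0.0769, where 0.0128 is the smallest possible; without baseline 2 its unadjusted p was above 0.05, and SELP (0.31), VCAM1 (0.49) and LYVE1 (0.053) turned sign. No gene of the 8 had groups that did not overlap, where 3.97% of all genes tested lay wholly lower at 6 h. For the other identity genes the log2 fold changes were -0.92 ± 0.48 (SE) for STAB1, -0.79 ± 0.41 for KDR, -0.72 ± 0.48 for PECAM1 and -0.17 ± 0.42 for LYVE1. For the activation genes they were -1.81 ± 1.45 for SELP, -1.04 ± 1.10 for EDN1 and -0.06 ± 0.52 for VCAM1. The median was -0.86 beside -0.01 over all genes tested. When the 4 libraries that stood apart were left out, an alternative chosen after seeing the data, STAB1 was at -1.50 ± 0.20 (SE), with an unadjusted p of 1.2e-05 and an adjusted p of 0.151 (edgeR quasi-likelihood test, Benjamini-Hochberg). That exclusion drops ischemic control 2 and portal infusions 1 and 4, the livers at 6 h with STAB1 at or near the baseline level (3954, 3073 and 3467 normalized counts). It therefore cannot decide whether STAB1 was lower at 6 h. Under the same exclusion TEK was at -1.03 ± 0.29 and SELP at -1.15 ± 0.66.

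The comparison of all infused livers with ischemic controls asks what BM-MSC infusion changed at 6 h. Of the 8 genes, 6 had a lower and 2 a higher fitted mean after infusion (lower in 52.1% of all genes tested), and none had an unadjusted p under 0.05, against 2.14% of all genes tested. The adjusted p was 1.00 for each (edgeR quasi-likelihood test, Benjamini-Hochberg). The 2 higher genes were VCAM1, with a log2 fold change of 0.61 ± 0.48 (SE), and KDR, with 0.59 ± 0.40. The lower genes were EDN1 at -0.85 ± 1.01, LYVE1 at -0.46 ± 0.37, PECAM1 at -0.37 ± 0.43, STAB1 at -0.31 ± 0.44, SELP at -0.13 ± 1.44 and TEK at -0.11 ± 0.51. Leaving out 1 control turned STAB1 (0.33 without ischemic control 2), PECAM1 (0.053 without ischemic control 3), SELP (0.97 without ischemic control 1) and TEK (0.22 without ischemic control 3). The median was -0.22 beside -0.02 over all genes tested, and the groups overlapped for each of the 8 genes, where 0.564% of all genes tested did not overlap. Without the 4 libraries that stood apart, VCAM1 was at 1.33 and KDR at 0.91, each with an unadjusted p under 0.05 and neither with an adjusted p under 0.05 (edgeR quasi-likelihood test, Benjamini-Hochberg). Under that exclusion 1457 of all 15544 genes tested had an unadjusted p under 0.05, against 353 of 16481 with every library.

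**Figure D2:**
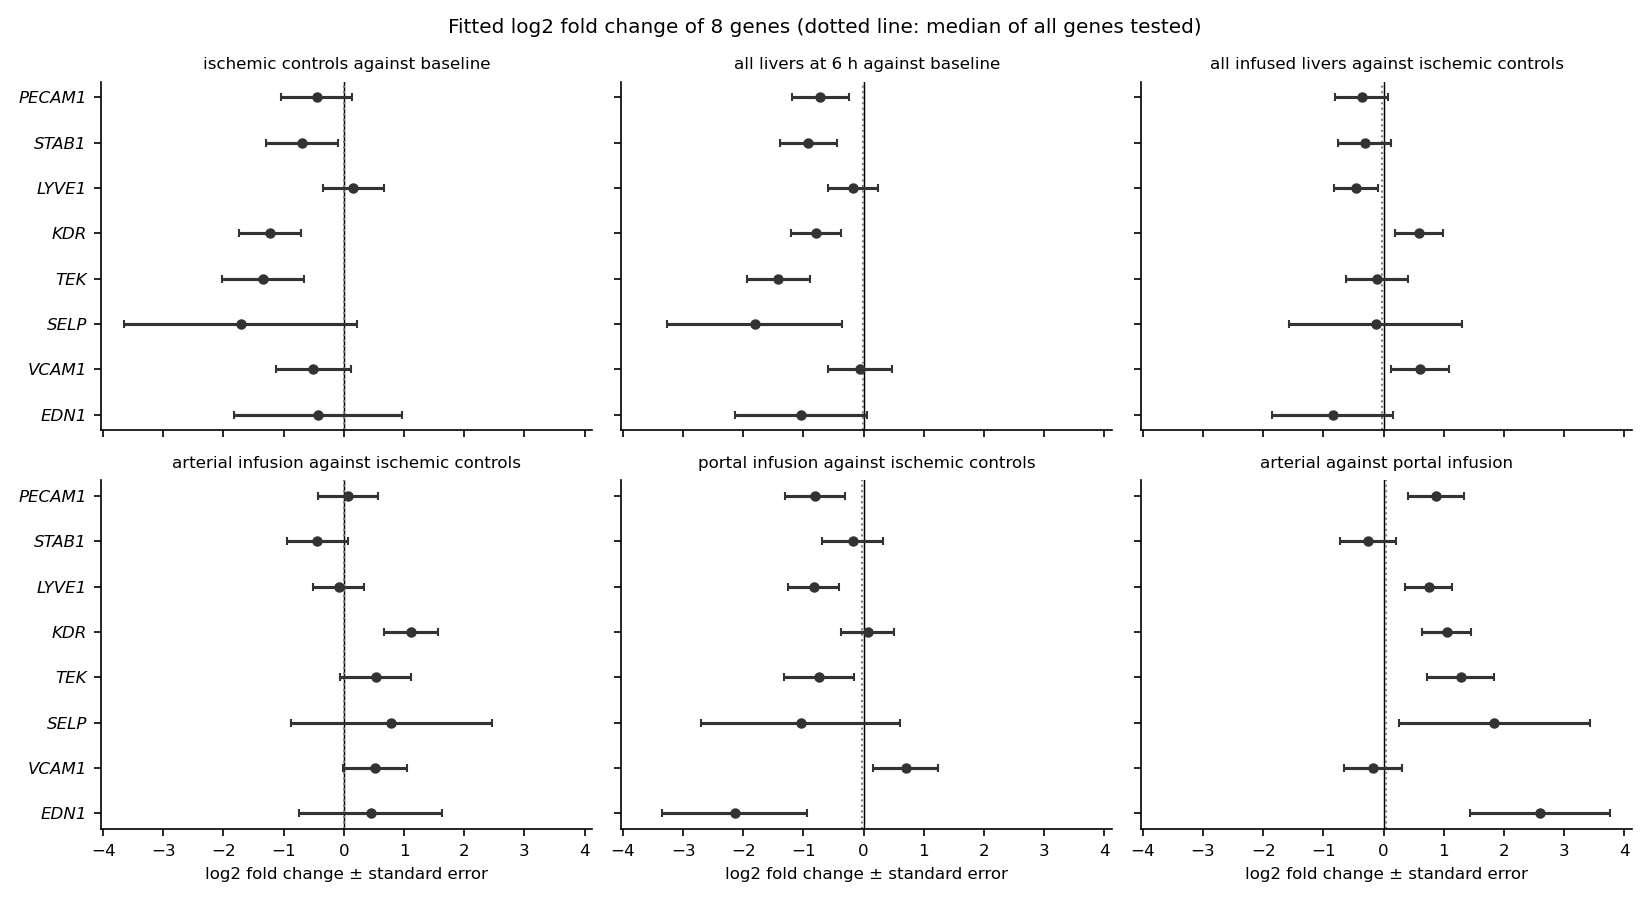
Fitted log2 fold change of each gene (points, with standard error) in 6 comparisons; the dotted line is the median of all genes tested and the solid line 0. All 8 points lie below 0 for livers at 6 h against baseline, and the widest errors belong to SELP and EDN1, the genes with the fewest reads.

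By route, the plot of fitted changes shows most genes higher after arterial than after portal infusion. Between the routes, 6 genes had a higher mean after arterial infusion, as did 52.9% of all genes tested, and 2, STAB1 and VCAM1, after portal infusion, and 3 had an unadjusted p under 0.05 against 2.4% of all genes tested. EDN1 had a log2 fold change, arterial against portal, of 2.59 ± 1.16 (SE) with an unadjusted p of 0.0420 and an exact two-sided permutation p of 0.0571. It ran from 2.13 without arterial infusion 4 to 3.92 without portal infusion 2, and was 1.61 without portal infusions 1 and 4. TEK had 1.28 ± 0.55 with p = 0.0346 and a permutation p of 0.0571, and KDR 1.05 ± 0.41 with p = 0.0214 and a permutation p of 0.143. SELP had 1.84 ± 1.58. The smallest p that 4 livers against 4 allow is 0.0286, the groups overlapped for each of the 8 genes but not for 1.41% of all genes tested, and the adjusted p was 1.00 for each (edgeR quasi-likelihood test, Benjamini-Hochberg). With arterial infusion 4 left out, or portal infusion 4, 0 of the 8 genes had an unadjusted p under 0.05 between the routes, and without arterial infusion 2 or portal infusion 1 there was 1. Without the 4 libraries that stood apart there were 5, and without portal infusions 1 and 4 alone 0. Of all genes tested, 692 of 15544 and 487 of 16047 passed in these 2 settings, against 396 of 16481 with every library. Arterial infusion 4 was the highest of the 13 libraries in 4 of the 8 genes, PECAM1, LYVE1, KDR and EDN1, and in 7.48% of all genes tested.

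Each route was also set against the same 3 controls. Arterial infusion gave 6 genes with a higher mean than in controls, as in 50.8% of all genes tested, and overlapping groups for all 8, where 3.19% of all genes tested did not overlap. After arterial infusion KDR was 2.17-fold higher than in controls, a log2 fold change of 1.12 ± 0.45 (SE) with an unadjusted p of 0.0254, and it was the 1 gene of 8 under 0.05, against 1.57% of all genes tested. Its exact permutation p was 0.114, arterial infusion 1 (1163) lay among the controls, and its unadjusted p was above 0.05 without arterial infusion 2 or 4 or without ischemic control 1 or 2. After portal infusion 6 genes had a lower mean than in controls, as did 51.9% of all genes tested. None of the 8 had an unadjusted p under 0.05, against 2.79% of all genes tested, but PECAM1 and EDN1 lay wholly below the controls, as did 2.33% of all genes tested. EDN1 had a log2 fold change of -2.14 ± 1.20 (SE) with an unadjusted p of 0.0950, moving between -3.47 (without portal infusion 2) and -1.73 (without portal infusion 1 or 4), and SELP one of -1.05 ± 1.65, which turned to 0.050 without ischemic control 1. PECAM1, named for its separation after its values were seen, had -0.80 ± 0.50 (SE), and an exact permutation p of 0.0286, the smallest that 4 livers against 3 allow, for 1 of 48 such tests (8 genes in 6 comparisons). The adjusted p was 1.00 for all 8 genes against controls by either route (edgeR quasi-likelihood test, Benjamini-Hochberg).

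To set identity genes against activation genes, the deviation of each gene from its mean over the 13 libraries was averaged, on the scale of log2(normalized count + 1), over PECAM1, STAB1, LYVE1, KDR and TEK and over SELP, VCAM1 and EDN1. These averages carry no test. The identity average was 0.75 at baseline, -0.03 in controls, 0.18 after arterial infusion and -0.53 after portal infusion. All 4 portal livers were below 0, from -0.76 to -0.32, and both baseline livers above it, at 0.49 and 1.00. The activation average was 1.15, 0.12, 0.63 and -1.30 in the same order. It was 0.29 and 2.02 in the 2 baseline livers, 0.71, -0.57 and 0.21 in controls, -1.39, 0.92, 1.06 and 1.95 after arterial infusion, and -3.08, 0.96, -0.12 and -2.96 after portal infusion.

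**Figure D3:**
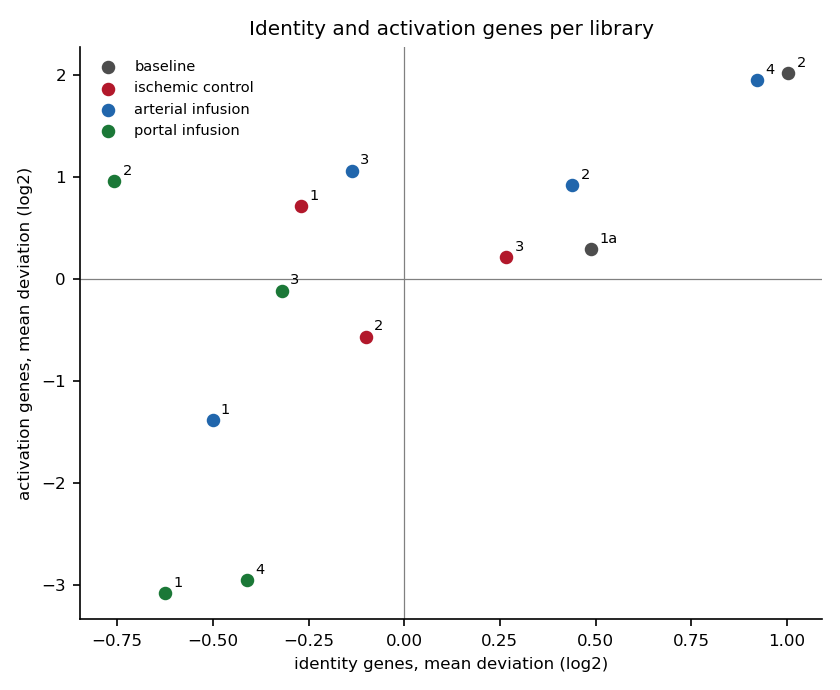
Mean deviation of the 5 identity genes (x axis) and the 3 activation genes (y axis) from their 13-library mean, in log2 units, 1 point per library with its number. Baseline 2 and arterial infusion 4 are high on both axes, portal infusions 1 and 4 are the lowest for activation at -3.08 and -2.96, and portal infusion 2 is the lowest for identity at -0.76 with activation at 0.96.

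Both averages are centred on the 13 libraries, so their difference has no zero of its own and only its order over the libraries can be read. Activation minus identity was -0.20 and 1.01 at baseline, 0.98, -0.47 and -0.06 in controls, -0.89, 0.48, 1.20 and 1.02 after arterial infusion, and -2.46, 1.71, 0.20 and -2.55 after portal infusion. The highest and the lowest of the 13 values were both portal livers, but without VCAM1 the highest was arterial infusion 3 (2.07). Portal infusions 1 and 4, the lowest, had SELP and EDN1 at 0 reads. The portal mean difference, -0.77, was -0.07 without EDN1, -1.52 without VCAM1 and -0.73 without SELP. The control mean difference, 0.15, was -0.33, 0.42 and 0.36 in that order, and the baseline mean difference, 0.41, was 0.28, 0.94 and 0.0046.

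Ratios of reads of 2 genes within a library do not depend on library size or scaling. The ratio of STAB1 to KDR reads differed little between the 2 baseline livers, 1.00 times their mean in each. That ratio was 2.52 times that mean in ischemic control 2, 3.40 in portal infusion 1 and 2.42 in portal infusion 4, and 0.33 to 1.04 in the other 8 livers at 6 h. STAB1 to TEK was 6.65, 8.18 and 5.34 times the baseline mean in those same 3 livers, 1.49 in arterial infusion 1 and 0.57 to 0.81 in the other 7. Relative to baseline, reads of the scavenger receptor thus stood above those of both growth factor receptors in 3 livers, 1 without infusion and 2 with portal infusion.

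The ratio of VCAM1, an adhesion molecule, to PECAM1, a junctional protein, was 0.95 and 1.05 times the baseline mean at baseline, 0.96, 2.18 and 0.45 in controls, 3.10, 1.27, 1.11 and 1.09 after arterial infusion, and 1.69, 5.33, 1.82 and 2.06 after portal infusion. All 4 portal livers were above baseline and above 3 of the 4 arterial livers, but ischemic control 2 and arterial infusion 1 were inside the portal range.

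**Figure D4:**
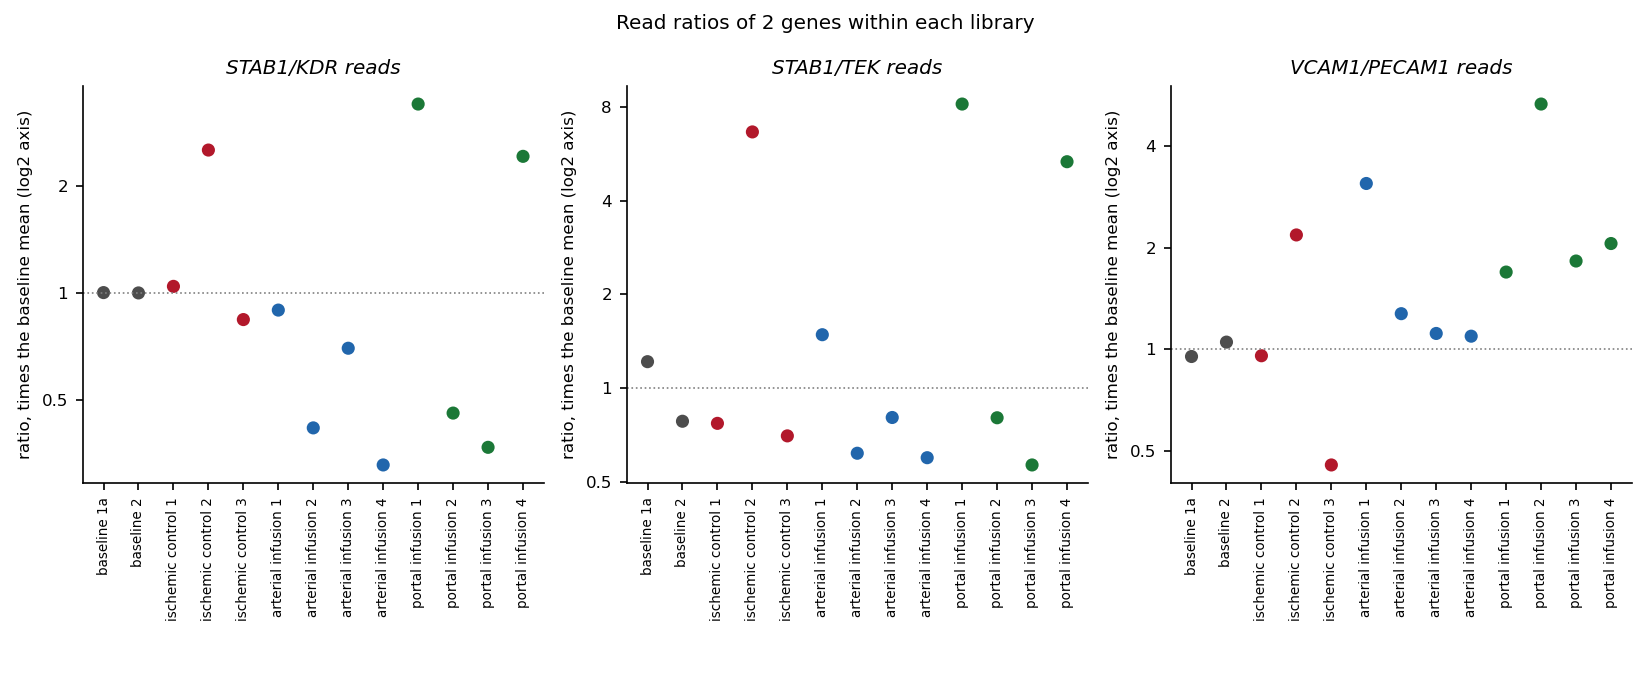
Reads of STAB1 over KDR, STAB1 over TEK and VCAM1 over PECAM1 within each of the 13 libraries, divided by the mean of the 2 baseline libraries, on a log2 axis; colours are the groups. Ischemic control 2 and portal infusions 1 and 4 hold the 3 highest STAB1 ratios, and portal infusion 2 the highest VCAM1 ratio at 5.33.

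The genes that separate in the plot of ratios also varied apart over the libraries. Correlations here are descriptions over the same 13 libraries, which share depth and scaling, on log2(normalized count + 1). KDR and TEK had Pearson r = 0.84 (Spearman 0.86), TEK and SELP 0.87 (0.81), PECAM1 and TEK 0.75 (0.84), and PECAM1 and LYVE1 0.74 (0.72). STAB1 had r between -0.34 and 0.35 with the other 7 genes, and VCAM1 between -0.13 and 0.36. The number of genes detected in a library moved with some of them: r was 0.76 for EDN1, 0.73 for TEK and SELP, 0.67 for PECAM1 and 0.50 for KDR, against 0.21 for LYVE1, 0.02 for VCAM1 and -0.23 for STAB1. The part of detection in the group differences was not tested.

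Among 10176 other genes with a symbol and a mean of at least 50 normalized counts, those most like PECAM1 over the 13 libraries were NOS3 (Pearson 0.94, Spearman 0.93), the endothelial nitric oxide synthase, ADGRF5 (0.91 and 0.92), an adhesion receptor, and NPR1 (0.88 and 0.89), a natriuretic peptide receptor. The nearest to STAB1 were EXOC3L2 (0.85 and 0.77), CSRNP2 (0.83 and 0.76) and MLLT6 (0.82 and 0.73). For LYVE1 these were FLI1 (0.89 and 0.93), a transcription factor of endothelial and blood cells, IL10RA (0.89 and 0.90) and ECM1 (0.87 for both). Genes close to KDR were CCDC39 (0.91 and 0.86) and FER (0.90 and 0.86), and those nearest to TEK were P4HA1 (0.96 for both), PPP4R3A (0.94 and 0.90) and KCTD3 (0.94 and 0.84). SELP was nearest to CNOT2 (0.97 and 0.72), SMAD4 (0.97 and 0.90) and REV1 (0.96 and 0.85). EDN1 was nearest to GJA5 (0.96 and 0.83), a connexin of arterial endothelium, NEXN (0.96 and 0.66) and ALDH1A3 (0.96 and 0.73). VCAM1 had no gene above 0.74, with PLPP3 (0.74 and 0.55), MORC3 (0.71 and 0.72) and MYLIP (0.68 and 0.67) the nearest.

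A wider list of 36 sinusoidal and general endothelial genes, chosen with earlier results of these data known, had 33 rows, those of CLEC4M, FCN3 and FCGR2B not being analysed here. None passed the adjusted threshold in any of the 3 main comparisons. In controls against baseline 16 had a higher and 17 a lower mean, with a median log2 fold change of -0.01. RAMP2, a partner of the adrenomedullin receptor, had a mean of 1147 normalized counts in controls and 409 at baseline, a log2 fold change of 1.46 ± 0.54 (SE) with unadjusted p = 0.0162, and 698, 1952 and 790 in the 3 controls. OIT3, expressed by sinusoidal endothelium, had 331 against 1499 (-2.18 ± 0.91, unadjusted p = 0.0301), and MRC1, the mannose receptor shared with macrophages, 1511 against 3314 (-1.13 ± 0.49, unadjusted p = 0.0348). OIT3 was 1358 and 1640 at baseline and 58.0 to 880 in the 11 livers at 6 h, which did not overlap, as for 3.97% of all genes tested in this direction. All livers at 6 h against baseline gave 9 higher and 24 lower with a median of -0.26, and OIT3 (-1.78 ± 0.67) and MRC1 (-1.04 ± 0.38) again had an unadjusted p under 0.05. Infused livers against controls gave 9 higher and 24 lower with a median of -0.21. There PLVAP, the diaphragm protein of fenestrated endothelium (-0.65 ± 0.27), CLDN5, a tight junction protein (-0.96 ± 0.41), and VWF, von Willebrand factor (-1.19 ± 0.55), had an unadjusted p of 0.0300, 0.0330 and 0.0487.

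**Figure D5:**
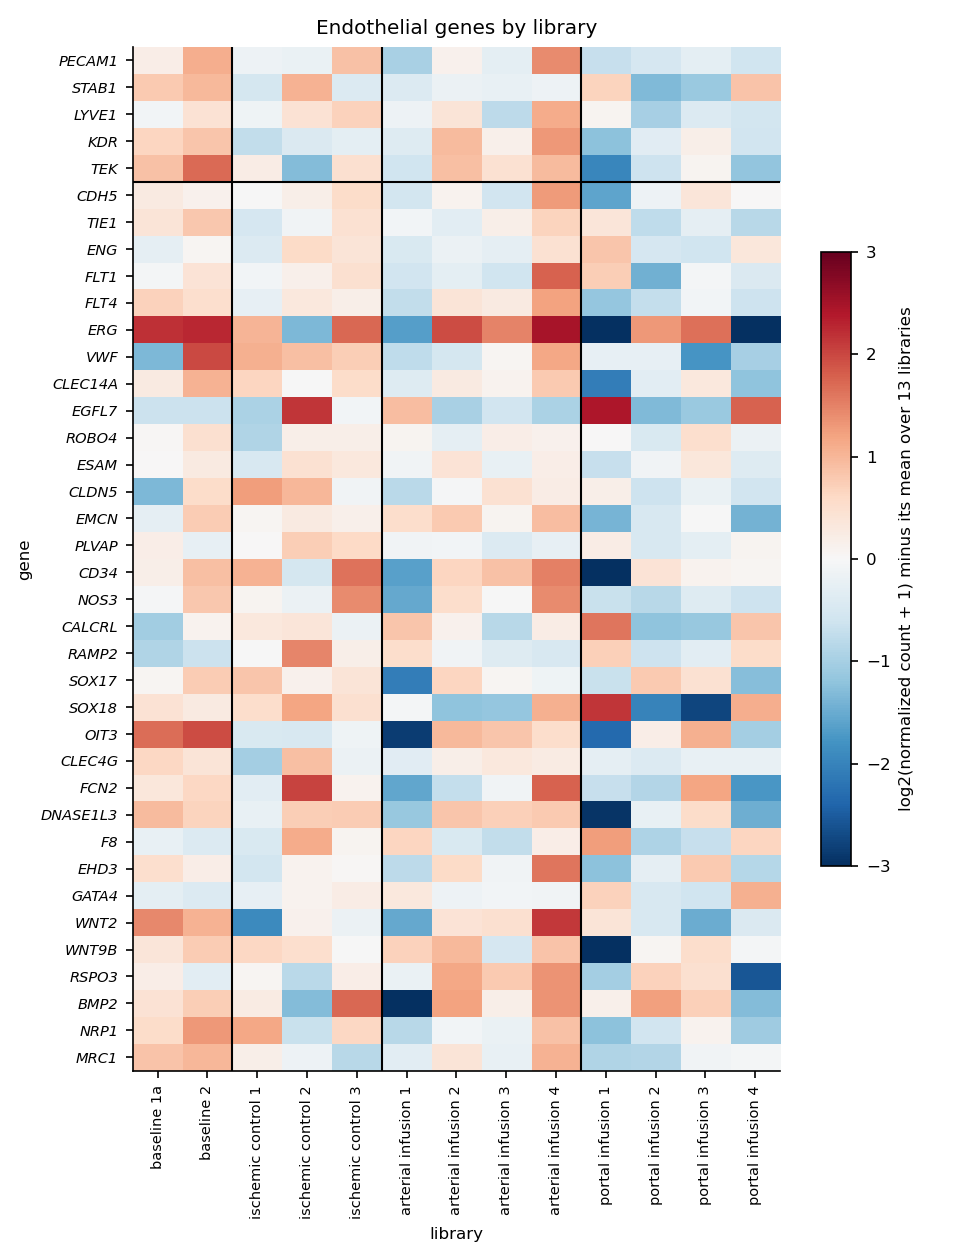
Deviation of log2(normalized count + 1) from the mean over 13 libraries (colour, cut at -3 and 3) for the 5 identity genes, above the line, and the 33 other endothelial genes; columns are libraries and vertical lines separate the 4 groups. ERG is far below and EGFL7 above its mean in ischemic control 2, arterial infusion 1 and portal infusions 1 and 4, and arterial infusion 4 is the highest library in 10 of the 33 genes below the line.

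The map of endothelial genes shows that single libraries crossed the groups. Arterial infusion 4 was the highest library in 10 of the 33 genes, as it was in 4 of the 8 genes above, beside 7.48% of all genes tested. Portal infusion 1 was the lowest in 10 and the highest in 5, and it was the highest in 19.3% of all genes tested. Values below both baseline livers were found in all 3 groups at 6 h: in 18, 13 and 9 of the 33 genes in ischemic controls 1, 2 and 3, in 21, 16, 21 and 4 after arterial infusion, and in 22, 26, 19 and 23 after portal infusion. Over all genes tested the share below both baseline livers was 37.0% to 51.8% in these 11 livers.

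Genes tied to endothelial activation or to its regulation formed a list of 28, all with a row. They do not all rise with activation, so the counts of higher and lower means below do not measure activation. In controls against baseline, where SELP, VCAM1 and EDN1 each had a lower mean, 20 of the 28 had a higher and 8 a lower mean, with a median of 0.57 beside 0.00 over all genes tested. None passed the adjusted threshold. KLF2, a transcription factor induced by shear stress, had a mean of 840 normalized counts in controls and 172 at baseline (log2 fold change 2.28 ± 0.82, unadjusted p = 0.0138). The NF-kappaB targets NFKBIA and TNFAIP3 had 2313 against 668 (1.76 ± 0.62) and 806 against 153 (2.36 ± 0.99), with an unadjusted p of 0.0123 and 0.0308, and ischemic control 2 was the highest control for both, at 4290 and 1574. ICAM1, another adhesion molecule for leukocyte integrins, had 1701 and 4047 at baseline and 1971, 4133 and 1906 in controls, which overlapped. With all livers at 6 h the list had 19 higher and 9 lower (median 0.35), among them NFKBIA (1.50 ± 0.55), KLF2 (1.85 ± 0.73) and, lower, the protease ADAMTS1 (-1.60 ± 0.49) under an unadjusted p of 0.05. After infusion against controls 7 were higher and 21 lower (median -0.44), and PTGS2, the inducible cyclooxygenase, had 89.1 against 359 (-2.07 ± 0.68, unadjusted p = 0.00876), with 783 in ischemic control 1 against 156 and 138 in the other controls. Portal infusion 2, the library with the highest VCAM1, was also the highest in 8 of these 28 genes, beside 3.99% of all genes tested, among them RND1 (24674) and TNFAIP3 (1918).

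Ligands, receptors and partners of the 8 proteins formed a list of 23 genes, with 20 tested. In controls against baseline 11 were higher and 9 lower (median 0.11), and none had an unadjusted p under 0.05. VEGFA, the ligand of KDR, had 4769 and 5769 normalized counts at baseline and 3172, 3343 and 2002 in controls, which did not overlap, as for 16.3% of all genes tested in this direction. EDNRB, the endothelin receptor of sinusoidal endothelium, had 461 and 1004 at baseline and 1053, 599 and 738 in controls. ECE1, the enzyme that releases endothelin from its precursor, had 10717, 12559 and 7520 in ischemic control 2 and portal infusions 1 and 4, 5545 in arterial infusion 1 and 2540 to 4351 elsewhere, so its order over these libraries was not that of EDN1. All livers at 6 h against baseline gave 10 higher and 10 lower, with none under an unadjusted p of 0.05. After infusion against controls 6 were higher and 14 lower (median -0.29), and ITGB2, the common chain of the leukocyte integrins that bind ICAM1, had 794 against 1455 (-0.93 ± 0.35, unadjusted p = 0.0184).

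Other cell types of the liver share some of these genes, and their markers are given as sums. The summed normalized counts of 10 macrophage markers, 38750 and 55125 at baseline, were 62233 to 141844 in controls, 44206 to 53108 after arterial infusion and 45829 to 52661 after portal infusion. In infused livers against controls the complement genes C1QA (-1.18 ± 0.30), C1QB (-1.12 ± 0.30) and C1QC (-0.98 ± 0.30) and the receptor CSF1R (-0.99 ± 0.31) had an unadjusted p from 0.00157 to 0.00563, and CD14 (-0.82 ± 0.38) one of 0.0457, against a background of 2.14% of all genes tested, and none passed the adjusted threshold. Ischemic control 2 was the highest library in 5 of the 10 macrophage markers: C1QA was 7108, 18970 and 11901 in controls and 4674 to 6199 in infused livers, and CSF1R 2018, 6054 and 3748 in controls and 1602 to 2306 in infused livers. Over the 10 markers, 7 had a higher mean in controls than at baseline and 9 a lower mean after infusion than in controls. The 3 with a lower mean in controls than at baseline were CD163 (6912 against 7358), VSIG4 (954 against 1042) and TIMD4 (556 against 656). The sum in controls came mostly from CD14, C1QA, C1QC and C1QB, with control means of 41549, 12660, 12350 and 11410. STAB1, LYVE1 and MRC1 are also expressed by macrophages, and the part of macrophages in their values was not tested. Platelet markers, of which 8 of 10 had a row and PF4 and GP1BA none, summed to 305 and 594 at baseline, 309 to 501 in controls, 284 to 334 after arterial infusion and 251 to 1527 after portal infusion, and PPBP, a platelet chemokine, had 0 to 8.38 normalized counts and no reads in 8 of the 13 libraries. ITGA2B, the platelet integrin chain, had 1309 and 914 in portal infusions 1 and 4, where SELP was at 0, and 189 to 493 in the other 11 libraries. The part of platelets in the SELP and PECAM1 values was not tested.

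Lymphatic markers, relevant to LYVE1, were PROX1, PDPN, CCL21, RELN and MMRN1. PROX1, which hepatocytes also express, had 1141 and 1486 at baseline and 112 to 795 in all 11 livers at 6 h (-1.52 ± 0.54, unadjusted p = 0.0132). These did not overlap, as for 3.97% of all genes tested in this direction. The sum of the 5 genes was 2842 and 4728 at baseline and 1165 to 2567 at 6 h. PROX1 and RELN, the latter also a stellate marker below, made up most of the baseline sum, with means of 1314 and 2046. CCL21, PDPN and MMRN1 had baseline means of 104, 26.9 and 294. In controls the means were 519 for PROX1, 1053 for RELN, 539 for CCL21, 41.5 for PDPN and 177 for MMRN1. MMRN1 had a log2 fold change of -2.03 ± 0.73 (SE) at 6 h and of -1.86 ± 0.70 after infusion against controls, with an unadjusted p of 0.0142 and 0.0176. CCL21, a chemokine of lymphatic endothelium, was at 2.35 ± 1.42 in controls and 1.76 ± 1.25 at 6 h against baseline, and PDPN, podoplanin, at 0.65 ± 1.61 and -0.86 ± 1.25, none with an unadjusted p under 0.05. CCL21 was highest in portal infusion 1 (1178) and ischemic control 2 (821). In controls against baseline 2 of the 5 had a higher mean, and at 6 h 1 of the 5 did. Neutrophil markers included S100A12 (3.45 ± 1.18) and S100A8 (3.83 ± 1.44) in controls against baseline, and 2.61 ± 1.05 and 3.05 ± 1.30 in all livers at 6 h, all with an unadjusted p under 0.05. Ischemic control 2 was the highest library for both, with S100A8 at 365, 5752 and 973 in the 3 controls. The neutrophil sum was 2780 and 4547 at baseline, 4515 to 16327 in controls, 2583 to 13197 after arterial infusion and 7349 to 11504 after portal infusion. One gene of it, LCN2, had a mean of 6279 after portal infusion and 2736 in controls. Of the 8 neutrophil markers, 7 had a lower and 1 a higher mean after portal infusion than in controls (median log2 fold change -0.66), beside 51.9% lower over all genes tested. In controls against baseline all 8 had a higher mean. Of 13 stellate cell markers, 10 had a lower and 3 a higher mean in each of the first 3 comparisons, with a median log2 fold change of -0.29, -0.58 and -0.38. Those with an unadjusted p under 0.05 were RELN, at -0.95 ± 0.40 in controls and -1.06 ± 0.31 at 6 h against baseline, and COL1A1, at -2.17 ± 0.69 after infusion (unadjusted p = 0.00669). COL1A1 was 10110, 2719 and 20604 in controls, and its log2 fold change in controls against baseline was 2.28 ± 1.09. After infusion ACTA2 (1.09 ± 0.87) and LRAT (1.08 ± 0.55) were on the higher side, with an unadjusted p of 0.228 and 0.0690. The stellate sum was 21944 and 29719 at baseline, 13741 to 38689 in controls, 9137 to 34915 after arterial infusion and 6173 to 23191 after portal infusion. NKG7, of the lymphocyte list, was at 1.71 ± 0.78 in controls and 1.51 ± 0.70 at 6 h, each against baseline. It had 149 to 902 normalized counts in controls and 149 and 181 at baseline. All 7 lymphocyte markers had a higher mean in controls than at baseline, but ischemic control 1 lay below both baseline livers in all 7. The cholangiocyte and hepatocyte lists named no gene. None of these passed the adjusted threshold.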

How the data were processed

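RNA from liver tissue was poly-A selected and made into non-directional libraries; per the labels and the methods of the study, the authors mapped reads to the pig assembly with HISAT2 and counted them per gene with featureCounts. The deposited values are raw counts, with no normalization. Reads of the infused human cells were not counted apart, and reads of overlapping genes on opposite strands cannot be told apart. Symbols were those of the table; RefSeq coordinates are on Sscrofa11.1.

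The 8 genes and the context lists were chosen with earlier results of these data known. All 13 libraries entered 1 fit in edgeR 4.0.16 (R 4.3.3): filterByExpr (minimum count 10), TMM, group means without covariates, and the quasi-likelihood test, adjusted after Benjamini and Hochberg over 16481 genes at 0.05. The SE of a log2 fold change was its size over the square root of F. Weights were 3:4:4 livers for all livers at 6 h and 4:4 for infused livers. Normalized counts were counts over size factors of DESeq2 1.42.0. Permutation tests were exact and two-sided, on log2(normalized count + 1). Scripts were tested on simulated data. Replicates were compared: the least different pair had a chi-square of 60.3 per gene, so no 2 agreed within sampling noise. Same-numbered libraries (16 pairs, correlations -0.42 to 0.43, 5 over 0.1) were not paired by their numbers. Named genes were all genes listed with every library, fold changes in the first 3 comparisons or of at least 1 on the log2 scale elsewhere, and up to 4 genes per context list with the smallest unadjusted p under 0.05; a few others are described to show the pathway and were chosen after their values were seen. Alternatives were RLE and upper quartile normalization, DESeq2, other filters, fits on the groups compared, a replicate block and leaving out libraries. No promoter or protein sequence was used here. Some genes that the naming rule selects are not reported here.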

Additional observations from a re-analysis of the deposited data

Results flagged for a closer look

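VCAM1 in portal infusion 2, at 2449 normalized counts, stood far from the other 3 portal livers (690 to 971): its gap to the nearest was 0.840 of the range of the group, above the 95% limit of Dixon's test for 4 samples. The test was run on 16 sets of 4 livers (8 genes in 2 infusion groups), and chance alone marks about 1 set in 20 if the values are normally distributed. It was run on normalized counts and not on the log2 scale of the permutation tests, so the flag holds for that scale only. In the same library RND1, TNFAIP3 and 6 further genes were the highest of the 13, out of the 28 genes tied to endothelial activation or its regulation. It was the highest library in 3.99% of all genes tested.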

How the results depend on the processing

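No alternative gave any of the 8 genes an adjusted p under 0.05 (25 settings, smallest 0.151, for STAB1), and none of the leave-one-out fits called a gene. Other settings called more genes over the whole table: without a filter on low counts 30, 27, 19, 11, 14, 5 and 95 genes for controls against baseline, livers at 6 h against baseline, infused livers, arterial infusion and portal infusion against controls, arterial against portal infusion and any difference; with DESeq2 on all libraries 5, 14, 1, 0, 4, 1 and 7; with DESeq2 on the groups compared 166 for controls against baseline and 3 for portal infusion; and 1 each for infused livers and arterial infusion against controls without the 4 libraries that stood apart. The cause was not tested. Members with an unadjusted p under 0.05 numbered, for controls against baseline, 2 with DESeq2 or edgeR on the groups compared, with at least 10 counts in every library (which drops SELP and EDN1) or with no filter, and 3 without the 4 libraries; for livers at 6 h 2 with no filter, without the 4 or without portal infusions 1 and 4; for infused livers 2 without the 4 and 1 without those 2; for portal infusion 1 with no filter, 2 without the 4 and 1 without those 2; and between routes 5 without the 4 and 0 without those 2. With 1 library left out they ranged from 0 to 0, 0 to 3, 0 to 0, 0 to 1, 0 to 1 and 0 to 4 in the order above. Over all genes tested the numbers under 0.05 changed as well, given here for controls, livers at 6 h, infused livers, portal infusion and routes. Without the 4 libraries they were 1724, 1557, 1457, 1454 and 692 of 15544. The fit of all 13 libraries had 720, 778, 353, 460 and 396 of 16481. Without portal infusions 1 and 4, all but controls had 675, 1100, 1077 and 487 of 16047. For controls against baseline, DESeq2 and edgeR on the groups compared gave 2041 and 1421. With the replicate block, which has no basis in the pairing check, the members under 0.05 were 3 at 6 h and 0 for arterial infusion, 0 genes were called, and VCAM1 at 6 h was at 0.056.

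Directions turned as follows. Without the 4 libraries EDN1 and SELP after infusion were at 0.027 and 0.028 and VCAM1 at 6 h at 0.0064; without portal infusions 1 and 4 SELP and TEK after infusion were at 0.35 and 0.17 and VCAM1 at 6 h at 0.12. With 1 library left out, controls against baseline ran from -0.91 to 0.25 for EDN1, -0.068 to 0.39 for LYVE1, -0.88 to 0.010 for PECAM1, -2.82 to 0.41 for SELP and -0.95 to 0.045 for VCAM1. Livers at 6 h ran from -0.41 to 0.053 for LYVE1, -2.65 to 0.31 for SELP and -0.49 to 0.49 for VCAM1. Infused livers ran from -0.69 to 0.053 for PECAM1, -0.69 to 0.97 for SELP, -0.59 to 0.33 for STAB1 and -0.49 to 0.22 for TEK, and portal infusion from -1.99 to 0.050 for SELP. SELP (0 to 119 reads) and EDN1 (0 to 190 reads) had the fewest reads of the 8 genes; what depth contributes to their zeros was not tested.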
